A study of Mus musculus with 12 samples.

Results

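The RNA levels of 6 genes were followed in mouse kidney glomeruli, the filtering units of the kidney, before and after adriamycin (ADR): Glipr2, Lgals1, Galnt15, Ankrd44, Dusp15 and 9530026P05Rik. They are 6 of the 26264 gene symbols in the deposited count tables, and all 6 were among the 17002 genes that passed the filter on low counts. They were selected on measured values of these same libraries, namely the difference between the ADR responses of 2 BALB/c substrains, so that difference, and the group levels that make it up, are given as a description without a test.

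The libraries came from male mice aged 8 weeks, supplied by CLEA Japan and all labelled as batch 1, of the substrain BALB/cAjcl (called Ajcl here) or the substrain BALB/cByJcl (called ByJcl). The ADR groups received 10 mg/kg as a single retro-orbital injection and were sampled on Day 5, and the baseline groups are labelled as untreated. The protocol also mentions control mice given saline, and the columns of the baseline libraries are named as controls, but none of the samples used here is labelled as saline-injected. Each of the 4 groups had 3 libraries of poly(A)-selected RNA from glomeruli collected with magnetic beads. Replicate 1 of Ajcl at Day 5 was left out of the fit, so that group had n = 2 and 11 libraries were fitted. The study left it out as well, for reduced glomerular purity. The labels number the replicates without tying each to an animal, so p-values measure the spread between these libraries.

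ADR, or doxorubicin, is an anthracycline that intercalates into DNA, poisons topoisomerase II and activates p53. In susceptible mouse strains it injures the podocyte, the epithelial cell whose foot processes cover the outside of the glomerular capillary, and causes albuminuria. The 6 genes belong to unrelated families. Glipr2 encodes a Golgi-associated protein of the CAP superfamily that binds Beclin 1, a component of the lipid kinase complex that starts autophagy. Lgals1 encodes galectin-1, a lectin that binds beta-galactosides on cell surfaces and in the matrix. Galnt15 encodes a polypeptide GalNAc transferase, an enzyme family that adds the first sugar of mucin-type O-glycans. Ankrd44 encodes an ankyrin-repeat regulatory subunit of protein phosphatase 6, and Dusp15 a dual specificity phosphatase. 9530026P05Rik is annotated as a long noncoding RNA gene with no role given.

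In the GENCODE annotation of GRCm39, the build of the deposited counts, Glipr2 (ENSMUSG00000028480.16) lies at chr4:43957401-43979118 on the plus strand and Lgals1 (ENSMUSG00000068220.8) at chr15:78810875-78814670 on the plus strand. Galnt15 (ENSMUSG00000021903.13) lies at chr14:31750756-31784154 on the plus strand. Ankrd44 (ENSMUSG00000052331.16) lies at chr1:54684499-54965574 and Dusp15 (ENSMUSG00000042662.18) at chr2:152782917-152794117, both on the minus strand. 9530026P05Rik (ENSMUSG00000097462.10) lies at chr6:92917271-93250030 on the plus strand, and Adamts9, transcribed from the opposite strand, overlaps it without sharing an exon base. Exons of Glipr2, Lgals1, Galnt15 and Ankrd44 share between 197 and 655 bases with an opposite-strand long noncoding RNA gene, and an exon of 9530026P05Rik shares 379 bases with Gm43923 on its own strand. None of those partners has a row in the count tables. The libraries were strand-specific, but the strand setting of the counting is not given in the sources used here, so reads of the opposite-strand partners could not be told apart.

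Sequence from before the transcription start is shown as a description, for those of the 6 genes with a promoter window. RefSeq promoter windows (GRCm38.p6) were held for 4 of the 6 genes, Glipr2, Galnt15, Ankrd44 and 9530026P05Rik, and each 250-base stretch before the RefSeq start had a single exact match in GRCm39, which gave the coordinates. The reference genome is that of C57BL/6J mice, and the sequence of the BALB/c substrains was not analysed. Letters searched on both strands were TGANTCA for AP-1, GGAATG for TEAD factors, GGGCGG for SP1 and TATAAA for the core promoter box of that name, beside the CArG box, which is given by its name alone. Capitals mark the matches that lie wholly within a printed stretch, and positions count back from the RefSeq start, with -1 as the last base before it. The Glipr2 stretch ends inside a GGGCGG match at positions -67 to -62, which is left in small letters.
Glipr2, chr4:43957608-43957637, plus strand: gctgcctttgCCTTATAAGGcggggccggg
Galnt15, chr14:31750991-31751020, plus strand: ttgctctgaccTGACTCAaggcatcccaag
9530026P05Rik, chr6:92917413-92917562, plus strand: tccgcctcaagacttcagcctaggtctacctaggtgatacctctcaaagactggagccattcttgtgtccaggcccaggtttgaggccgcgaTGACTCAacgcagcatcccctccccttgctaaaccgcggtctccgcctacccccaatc
Ankrd44, chr1:54965575-54965696, minus strand: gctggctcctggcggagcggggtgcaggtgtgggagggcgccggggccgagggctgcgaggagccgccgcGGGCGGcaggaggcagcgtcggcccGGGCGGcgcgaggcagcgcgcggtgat

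The AP-1 letters lay at positions -58 to -52 in both Galnt15 and 9530026P05Rik, and 6.87% of 27025 promoter windows of the same length held them. The CArG box of Glipr2 lay at positions -84 to -75, and 1.40% of windows held one. GGGCGG or its complement occurred at 3 places in Glipr2 and at 2 in Ankrd44, and 32.9% of windows held it. TEAD letters (12.6% of windows) and TATAAA (13.0%) were not in the 250 bases searched of any of the 4 genes. The GENCODE gene model starts 301 bases before the RefSeq start in Glipr2, 304 in Galnt15 and 292 in 9530026P05Rik, so these stretches also lie within an annotated exon, and for Glipr2 and Galnt15 only 30 bases around the match are shown. The Ankrd44 stretch ends at the GENCODE start. A match of letters is a description and was not tied to any reading of these libraries.

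Levels are CPM, counts scaled to a common library size, after TMM scaling, edgeR's correction of library size, with the SD between libraries. Glipr2 stood at 10.1, 10.0 and 6.66 CPM in the Ajcl baseline libraries and at 5.29 and 7.10 CPM in those of Ajcl at Day 5. In ByJcl it stood at 6.85, 6.94 and 6.93 CPM at baseline and at 12.9, 13.1 and 14.3 CPM at Day 5. Every ByJcl Day 5 library lay above every library of the other groups, while the Ajcl baseline, Ajcl Day 5 and ByJcl baseline ranges overlapped. Group means were 8.93 ± 1.97 (SD, n = 3) at Ajcl baseline, 6.19 ± 1.28 (n = 2) at Ajcl Day 5, 6.91 ± 0.0471 (n = 3) at ByJcl baseline and 13.5 ± 0.741 (n = 3) at ByJcl Day 5. The Day 5 to baseline difference was -0.53 ± 0.21 (SE) on the log2 scale in Ajcl and 0.96 ± 0.19 in ByJcl, a 1.95-fold higher level in the latter. The point estimates therefore had opposite signs in the substrains.

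Lgals1 stood at 34.7, 27.5 and 26.9 CPM in Ajcl at baseline and at 27.5 and 45.8 CPM in Ajcl at Day 5. In ByJcl the baseline libraries held 29.2, 28.5 and 27.6 CPM and the Day 5 libraries 90.2, 121 and 81.4 CPM. The ByJcl Day 5 libraries again lay above all others, and the baseline groups overlapped each other. The lower Ajcl Day 5 library lay within the Ajcl baseline range. Means ran from 28.4 ± 0.765 CPM (SD, n = 3) at ByJcl baseline through 29.7 ± 4.32 (n = 3) at Ajcl baseline and 36.7 ± 12.9 (n = 2) at Ajcl Day 5 to 97.5 ± 20.7 (n = 3) at ByJcl Day 5. The log2 difference from baseline was 0.31 ± 0.22 (SE) in Ajcl and 1.78 ± 0.20 in ByJcl, or 3.43-fold in ByJcl.

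Galnt15, the member with the fewest counts, had 32, 51 and 82 counts in the Ajcl baseline libraries, or 0.735, 1.09 and 1.69 CPM. The Ajcl Day 5 libraries stood at 6.07 and 3.59 CPM. In ByJcl it stood at 2.65, 4.02 and 3.11 CPM at baseline and at 2.10, 2.80 and 2.83 CPM at Day 5. The Ajcl baseline libraries were the lowest without overlap, the ranges of the 2 ByJcl groups overlapped, and 1 Ajcl Day 5 library fell within the ByJcl baseline range. The Ajcl mean was 1.17 ± 0.483 CPM (SD, n = 3) at baseline and 4.83 ± 1.76 (n = 2) at Day 5, a log2 difference of 2.04 ± 0.36 (SE). The ByJcl mean was 3.26 ± 0.700 CPM (SD, n = 3) at baseline and 2.58 ± 0.413 (n = 3) at Day 5, a log2 difference of -0.34 ± 0.32 (SE). Galnt15 was the member whose baseline levels were farthest apart between the substrains, with a log2 difference (ByJcl minus Ajcl) of 1.47 ± 0.34 against estimates from -0.37 to 0.32 for the other 5 genes.

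Ankrd44 was the member with the most counts, 5055 to 13401 per library. It stood at 198, 232 and 221 CPM in Ajcl at baseline and at 192 and 155 CPM in Ajcl at Day 5. The ByJcl libraries held 256, 273 and 247 CPM at baseline and 123, 116 and 128 CPM at Day 5. The 4 groups did not overlap, in the order ByJcl baseline, Ajcl baseline, Ajcl Day 5 and ByJcl Day 5, although the gap between the Ajcl groups, from 198 to 192 CPM, was smaller than the spread within either. Means were 259 ± 13.1 CPM (SD, n = 3), 217 ± 17.5 (n = 3), 174 ± 25.9 (n = 2) and 122 ± 6.14 (n = 3) in that order. The log2 difference from baseline was -0.32 ± 0.12 (SE) in Ajcl and -1.08 ± 0.11 in ByJcl, so both estimates were negative and differed in size.

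Dusp15 stood at 18.8, 27.8 and 23.2 CPM in Ajcl at baseline and at 40.5 and 23.3 CPM in Ajcl at Day 5. The ByJcl libraries held 32.6, 24.2 and 30.3 CPM at baseline and 13.7, 15.6 and 15.5 CPM at Day 5. Each ByJcl Day 5 library was below each library of the other 3 groups, which overlapped one another. The 2 Ajcl Day 5 libraries lay far apart, and the lower of them was level with the Ajcl baseline mean of 23.3 ± 4.46 CPM (SD, n = 3). The other means were 31.9 ± 12.2 CPM (n = 2) in Ajcl at Day 5, 29.0 ± 4.36 (n = 3) in ByJcl at baseline and 14.9 ± 1.10 (n = 3) in ByJcl at Day 5. The log2 difference from baseline was 0.46 ± 0.23 (SE) in Ajcl and -0.96 ± 0.21 in ByJcl.

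The noncoding gene 9530026P05Rik stood at 5.63, 7.04 and 7.15 CPM in Ajcl at baseline and at 6.64 and 6.35 CPM in Ajcl at Day 5. The ByJcl libraries held 7.79, 7.60 and 7.86 CPM at baseline and 3.81, 3.03 and 3.74 CPM at Day 5. The ByJcl Day 5 libraries were the lowest and the ByJcl baseline libraries the highest, and the Ajcl groups overlapped. Means were 6.61 ± 0.850 CPM (SD, n = 3) and 6.49 ± 0.210 (n = 2) in Ajcl and 7.75 ± 0.136 (n = 3) and 3.53 ± 0.427 (n = 3) in ByJcl. The log2 difference from baseline was -0.03 ± 0.18 (SE) in Ajcl and -1.14 ± 0.17 in ByJcl, or 2.20-fold lower in ByJcl.

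**Figure D1:**
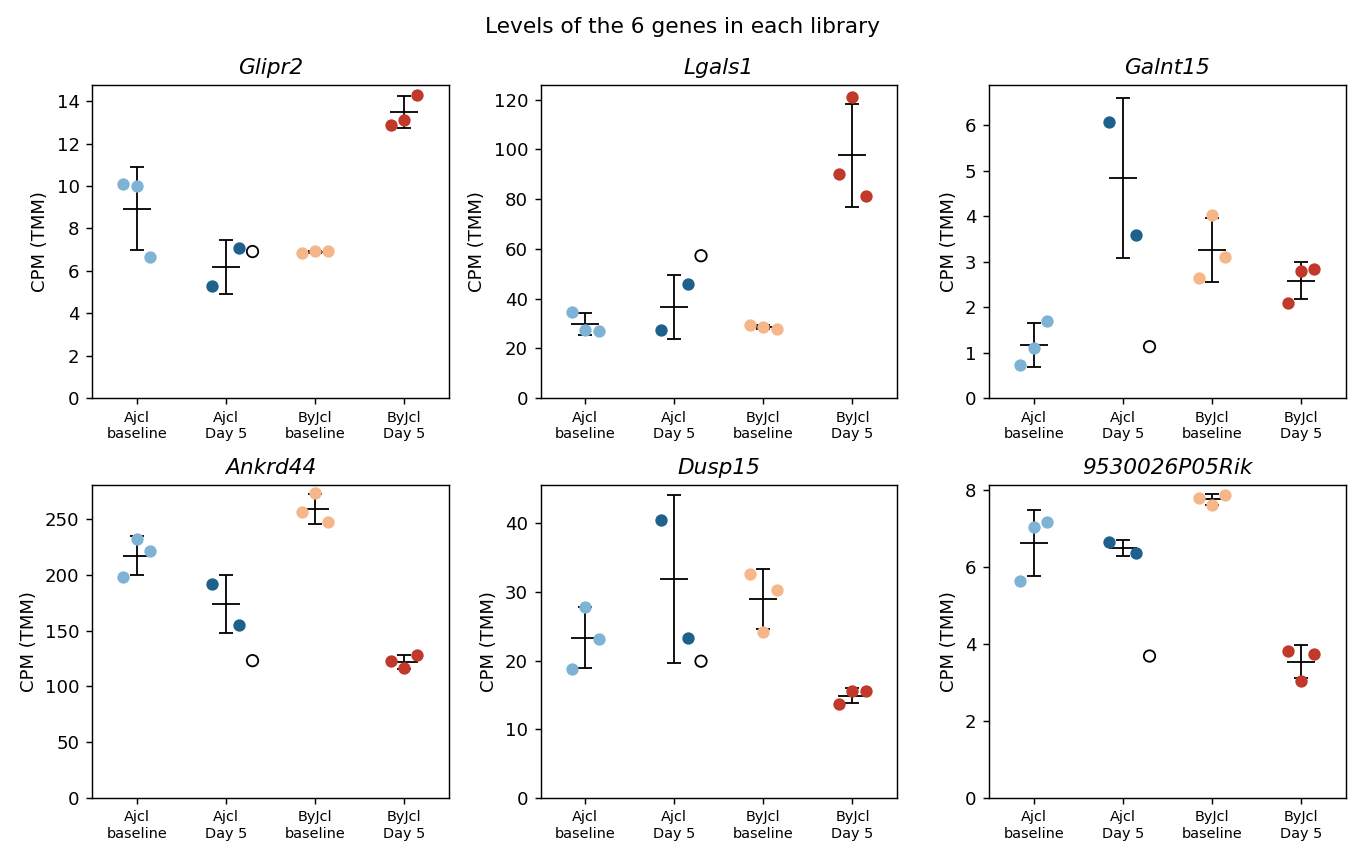
Level of each of the 6 genes in CPM after TMM scaling (vertical axis, from 0) in the 4 groups; filled points are libraries, bars the group mean with SD, and the open circle is the Ajcl Day 5 library left out of the fit. In ByJcl at Day 5 Glipr2 (12.9 to 14.3 CPM) and Lgals1 (81.4 to 121 CPM) lay above, and Ankrd44, Dusp15 and 9530026P05Rik below, all fitted libraries of the other groups.

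Per kilobase of annotated exon, which allows levels of different genes to be compared, Lgals1 and Ankrd44 were the most abundant. At Ajcl baseline Lgals1 stood at 17.6 ± 2.55 CPM per kilobase (SD, n = 3) and Ankrd44 at 14.7 ± 1.19, followed by Dusp15 at 4.96 ± 0.951 and Glipr2 at 3.68 ± 0.811. 9530026P05Rik stood at 0.422 ± 0.0543 and Galnt15 at 0.177 ± 0.0729 CPM per kilobase. At ByJcl Day 5 Lgals1 was at 57.6 ± 12.2 and Ankrd44 at 8.29 ± 0.416 CPM per kilobase, and Glipr2 (5.55 ± 0.306) stood above Dusp15 (3.19 ± 0.234). The exon length used is that of all annotated transcripts together, 15659 bases for 9530026P05Rik and 14764 for Ankrd44, so levels per length of these genes are low estimates for any shorter transcript.

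The difference between the responses, ByJcl minus Ajcl, was the contrast that chose the genes. It was 1.49 ± 0.28 (SE, log2) for Glipr2 and 1.47 ± 0.30 for Lgals1, and -2.38 ± 0.49 for Galnt15, -0.76 ± 0.16 for Ankrd44, -1.41 ± 0.31 for Dusp15 and -1.11 ± 0.25 for 9530026P05Rik. Ordered by unadjusted p over the 17002 genes tested, Glipr2 was at rank 2, Lgals1 at 4, Galnt15 at 7, Ankrd44 at 8, Dusp15 at 12 and 9530026P05Rik at 13. Next in order outside the 6 genes were Pno1 (1.04 ± 0.21) at rank 5 in the positive direction and Ttc7 (-0.69 ± 0.15) at rank 14 in the negative, and further genes among these ranks, such as Col5a3, H2-Q6 and Znrf3, were not selected. Over all tested genes edgeR's quasi-likelihood test called 0 (0%) at an adjusted p under 0.05, with a smallest adjusted p of 0.62 and 1363 genes at an unadjusted p under 0.05. DESeq2's Wald test on the same 11 libraries called 23 (0.135%), and all 6 genes were among them, on the contrast that they were chosen by.

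**Figure D2:**
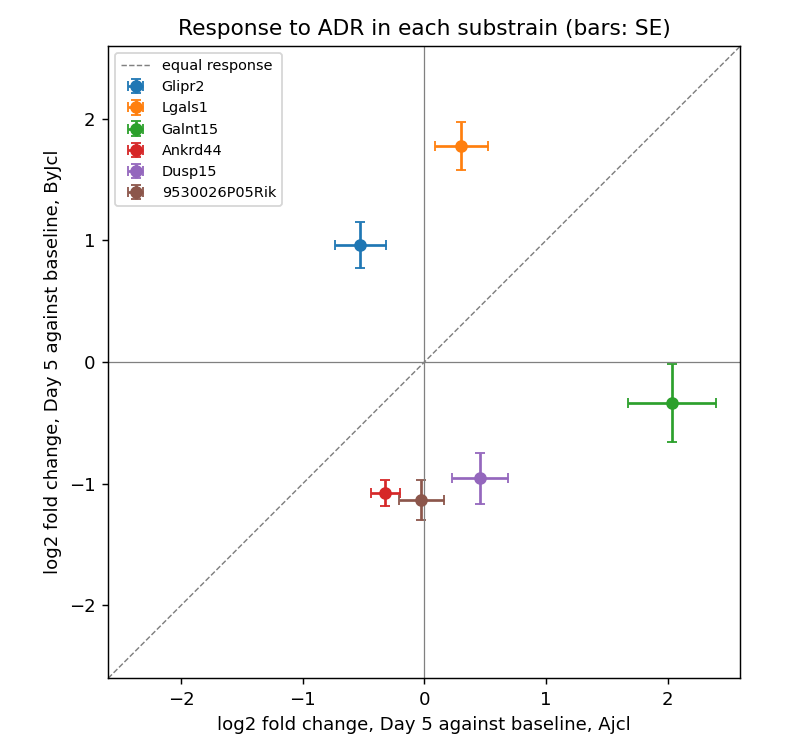
Log2 fold change from baseline to Day 5 in Ajcl (horizontal) and ByJcl (vertical) for the 6 genes, with bars of 1 SE; the dashed line marks equal responses. Glipr2 (-0.53, 0.96), Galnt15 (2.04, -0.34) and Dusp15 (0.46, -0.96) lay in quadrants of opposite sign, while Ankrd44 and Lgals1 had the same sign in both substrains.

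The average of the ADR responses of the substrains is a measure that the choice did not rank on, and it was tested for all genes. It shares the residual spread with the difference that chose the members, and with n = 2 at Ajcl Day 5 the contrasts are close to independent rather than exactly so. By edgeR's quasi-likelihood test 10.4% of the tested genes were called, 6.29% higher and 4.15% lower at Day 5. Of the 6 genes 4 were called. Lgals1 rose by 1.04 ± 0.15 (SE, log2; edgeR adjusted p = 0.00183), and it was called under each of 19 alternative settings (0.83 to 1.35). Ankrd44 fell, with a log2 change of -0.70 ± 0.08 (edgeR adjusted p = 0.000848), and was also called under all 19 (-0.96 to -0.63). 9530026P05Rik fell as well (-0.58 ± 0.13, edgeR adjusted p = 0.0142). Its call was lost without Ajcl Day 5 replicate 3, with an edgeR adjusted p of 0.0883 in a range of 0.000241 to 0.0883 over the 19 alternatives.

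Galnt15 passed narrowly, at 0.85 ± 0.24 (SE, log2; edgeR adjusted p = 0.0481), from log2 responses of 2.04 in Ajcl and -0.34 in ByJcl. It was called under 6 of 19 alternatives, over which the adjusted p ran from 0.0102 to 0.646. With all 12 libraries the estimate was 0.64 (edgeR adjusted p = 0.302). With the Ajcl library left out as the only one of its group the estimate was -0.21 (edgeR adjusted p = 0.646). Glipr2 (0.22 ± 0.14, edgeR adjusted p = 0.370) and Dusp15 (-0.25 ± 0.16, edgeR adjusted p = 0.357) did not pass, with opposite estimates in the substrains. Over the fits that leave out 1 library Glipr2 ran from 0.10 to 0.31 and Dusp15 from -0.48 (edgeR adjusted p = 0.0593, without Ajcl Day 5 replicate 2) to -0.08, and over all 19 alternatives the adjusted p of Dusp15 ran from 0.0206 to 0.870. Baseline and Day 5 counts come in separate tables, so the table and ADR cannot be told apart in these values.

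The difference between the substrains averaged over baseline and Day 5 was tested in the same way, with the same shared spread. By edgeR 0.565% of the genes were called (96 of 17002), and none of the 6 was among them. Lgals1 had the estimate nearest to the threshold, at 0.67 ± 0.15 (SE, log2; edgeR adjusted p = 0.0769). That value was 0.88 without Ajcl Day 5 replicate 3 (edgeR adjusted p = 0.0199) and 0.67 by DESeq2 (adjusted p = 0.00192), within a range of adjusted p from 0.00192 to 0.395 over 19 alternatives. The other 5 genes had estimates from -0.39 (Dusp15) to 0.38 (Glipr2), with edgeR adjusted p from 0.232 to 0.620.

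The Ajcl Day 5 library that was left out was described separately. Its CPM, on the scale of the 11 libraries, was 6.91 for Glipr2, within the range of the 2 fitted Ajcl Day 5 libraries. For Lgals1 it was 57.2, above both of those and below each ByJcl Day 5 library. For Galnt15 it was 1.13, within the Ajcl baseline range and below every library of the other 3 groups. For Ankrd44 (123) and 9530026P05Rik (3.68) it fell within the ByJcl Day 5 range, and for Dusp15 (19.9) between the Day 5 ranges of the substrains. On the log2 scale it was nearer to the Ajcl than to the ByJcl Day 5 mean for Glipr2 and Lgals1. It was nearer to the ByJcl mean for Galnt15, Ankrd44, Dusp15 and 9530026P05Rik. The same was not counted over all genes tested, so these distances describe the 6 genes only. The library had the highest summed level of proximal tubule markers (5640 CPM against 488 to 4730 in the others) and of distal nephron and collecting duct markers (2120 against 101 to 1650). Its podocyte sum, 13100 CPM, lay below both fitted Ajcl Day 5 libraries (14800 and 19000 CPM) and within the ByJcl Day 5 range (11700 to 16000 CPM). The part of these sums in its values was not tested.

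With all 12 libraries the difference of the responses was 1.46 for Glipr2, 1.26 for Lgals1, -1.92 for Galnt15, -0.58 for Ankrd44, -1.19 for Dusp15 and -0.855 for 9530026P05Rik on the log2 scale. With the library left out as the only Ajcl Day 5 library it was 1.37 for Glipr2 and 0.87 for Lgals1. In that fit it was -0.24 for Galnt15, -0.23 for Ankrd44, -0.69 for Dusp15 and -0.26 for 9530026P05Rik. The signs stayed in both fits. In the fit with the single library, whose spread is assumed to be that of the other groups, Glipr2 changed by less than the within-group SD of its log2 CPM (0.219), and the other 5 moved by more than theirs. With all 12 libraries Galnt15, Ankrd44 and 9530026P05Rik moved by more than that SD. In the order over all genes with 12 libraries Glipr2 was at rank 2 and Lgals1 at 27, while Dusp15 was at 78, Ankrd44 at 294, Galnt15 at 302 and 9530026P05Rik at 351.

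**Figure D3:**
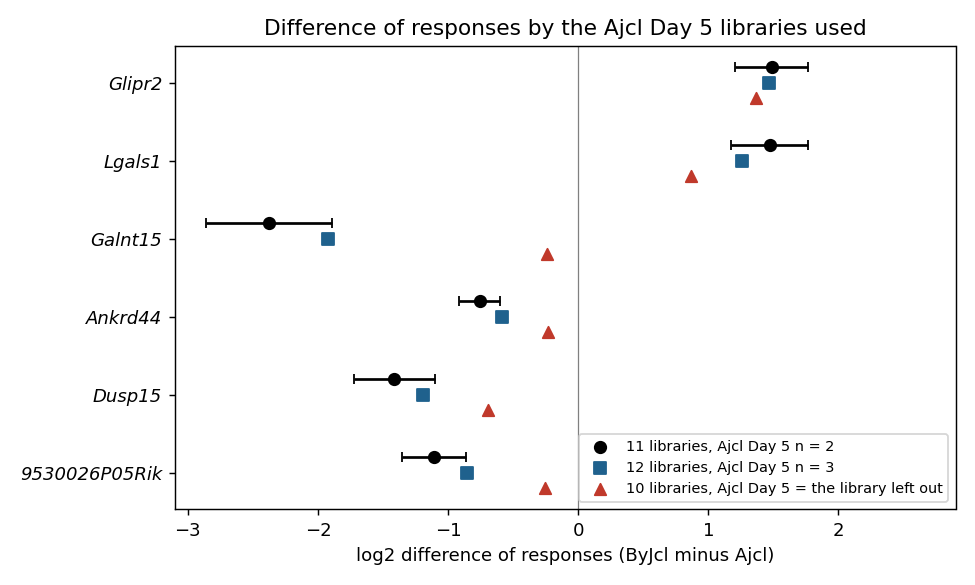
Difference of the log2 responses, ByJcl minus Ajcl (horizontal), of the 6 genes with the 2 fitted Ajcl Day 5 libraries (circles, bars of 1 SE), all 3 (squares) and the library left out alone (triangles). Glipr2 stood between 1.37 and 1.49 in all 3 fits, whereas Galnt15 ran from -2.38 to -0.24.

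Marker lists showed what the preparations held. In bulk RNA, fewer cells of a type and less RNA per cell cannot be told apart. The 12 podocyte markers summed to 17700 to 24300 CPM in Ajcl and 22200 to 25500 CPM in ByJcl at baseline, and the fitted Day 5 libraries to 14800 to 19000 CPM in Ajcl and 11700 to 16000 CPM in ByJcl. In the averaged response 9 of the 12 fell by edgeR (Synpo, which encodes the actin-associated protein synaptopodin, by 1.08 on the log2 scale, adjusted p = 0.00239), Cdkn1c rose (0.98, adjusted p = 0.00162) and Clic5 and Npnt did not pass. The difference of the responses was negative for 11 of the 12 (median -0.83, beside 0.003 over all genes tested). By edgeR none was called, as was true of all 17002 genes tested. Ankrd44, Dusp15 and 9530026P05Rik were also lowest at ByJcl Day 5. In Ajcl the podocyte sums and Ankrd44 were lower at Day 5 than at baseline on average, while the mean of Dusp15 was higher and that of 9530026P05Rik nearly level. The part of the podocyte sums in these values was not tested.

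The sums of 2 further lists were highest at ByJcl Day 5, as Glipr2 and Lgals1 were. Parietal epithelial markers, of which all 6 were tested, summed to 415 to 838 CPM in the ByJcl Day 5 libraries against 225 to 316 CPM in the fitted libraries of the other groups. Of these, Akap12 (0.77, edgeR adjusted p = 0.0364) and Cldn1 (0.56, adjusted p = 0.0223) rose in the averaged response, and Akap12 made up most of the higher sum (183 CPM at ByJcl baseline and 460 CPM at Day 5). Pax8 (-0.24), Pax2 (-0.26), Krt8 (-0.07) and Krt18 (-0.29) did not pass. Smooth muscle and juxtaglomerular markers summed to 698 to 845 CPM at ByJcl Day 5 against 511 to 609 CPM elsewhere, and Tagln rose (0.84, edgeR adjusted p = 0.00187). Ren1, the juxtaglomerular marker of that list, did not pass the filter on low counts, so the sum speaks for the 5 smooth muscle genes tested. Tagln made up most of the higher sum (127 CPM at ByJcl baseline and 314 CPM at Day 5), while Acta2 (-0.16), Smtn (-0.14), Myh11 (0.05) and Cnn1 (0.48) did not pass. Fibroblast markers summed to 153 to 242 CPM at ByJcl Day 5, 337 to 369 CPM in the fitted Ajcl Day 5 libraries and 458 to 656 CPM at baseline, where 1 gene, Col1a2, took most of the sum. The fibroblast sum was lowest at ByJcl Day 5, as Ankrd44 was, and followed Col1a2 (104 CPM there). Col3a1 (2.49 CPM) was lowest there as well. Col1a1 (8.23 CPM at Ajcl Day 5 against 13.9 CPM at ByJcl Day 5) and Dcn (1.65 against 2.46 CPM) were lowest at Ajcl Day 5. Pdgfra was lowest at Ajcl baseline (80.8 CPM). The part of these cell types in the values of the 6 genes was not tested.

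Mesangial markers (1970 to 3300 CPM in the fitted libraries) and glomerular endothelial markers (5670 to 9980 CPM) had overlapping ranges in Ajcl and ByJcl at Day 5. Of the mesangial list, Serpine2 rose in the averaged response (0.59, edgeR adjusted p = 0.0032), with 556 CPM in Ajcl and 930 CPM in ByJcl at Day 5. Pdgfrb (-0.007), Itga8 (0.11), Gata3 (-0.05), Ptn (-0.28) and Art3 (-0.15) did not pass. Proximal tubule markers ranged from 488 to 2320 CPM at ByJcl Day 5 and from 2030 to 2890 CPM in the fitted Ajcl Day 5 libraries, and distal nephron markers from 101 to 519 CPM and from 851 to 1120 CPM. The distal ranges of the substrains did not overlap at Day 5, and their part in the values of the 6 genes was not tested. Macrophage markers (43.9 to 123 CPM), lymphocyte markers (3.34 to 22.9 CPM) and neutrophil markers (1.49 to 18.0 CPM) were low in all fitted libraries. At Day 5 the ranges of these 3 lists did not overlap between the substrains and were higher in ByJcl, at 79 to 123 CPM against 44.1 to 74.1 CPM for macrophage, 12.4 to 20.7 CPM against 3.34 to 12 CPM for lymphocyte and 8.98 to 18 CPM against 1.49 to 6.61 CPM for neutrophil markers. The macrophage (66.2 to 111 CPM against 43.9 to 62.9 CPM) and lymphocyte (16.1 to 22.9 CPM against 7.3 to 11.3 CPM) ranges were already apart at baseline. In ByJcl the baseline and Day 5 ranges of all 3 lists overlapped. The part of these 3 lists in the values of the 6 genes was not tested. Of the macrophage list, Cd68 (0.93, edgeR adjusted p = 0.00872) and Cd14 (0.47, adjusted p = 0.0301) rose in the averaged response. Adgre1 (-0.44), Csf1r (-0.29), C1qa (-0.405), C1qb (-0.33), C1qc (-0.52) and Lyz2 (0.23) did not pass. Lyz2 had the widest gap between the substrains, at 18.5 and 19.9 CPM in Ajcl and 42.1 and 53.7 CPM in ByJcl at baseline and Day 5. Of the erythroid list, Hba-a1, Hba-a2, Hbb-bs and Hbb-bt had no counts in any library, and Alas2 fell (-3.48, edgeR adjusted p = 0.000601).

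**Figure D4:**
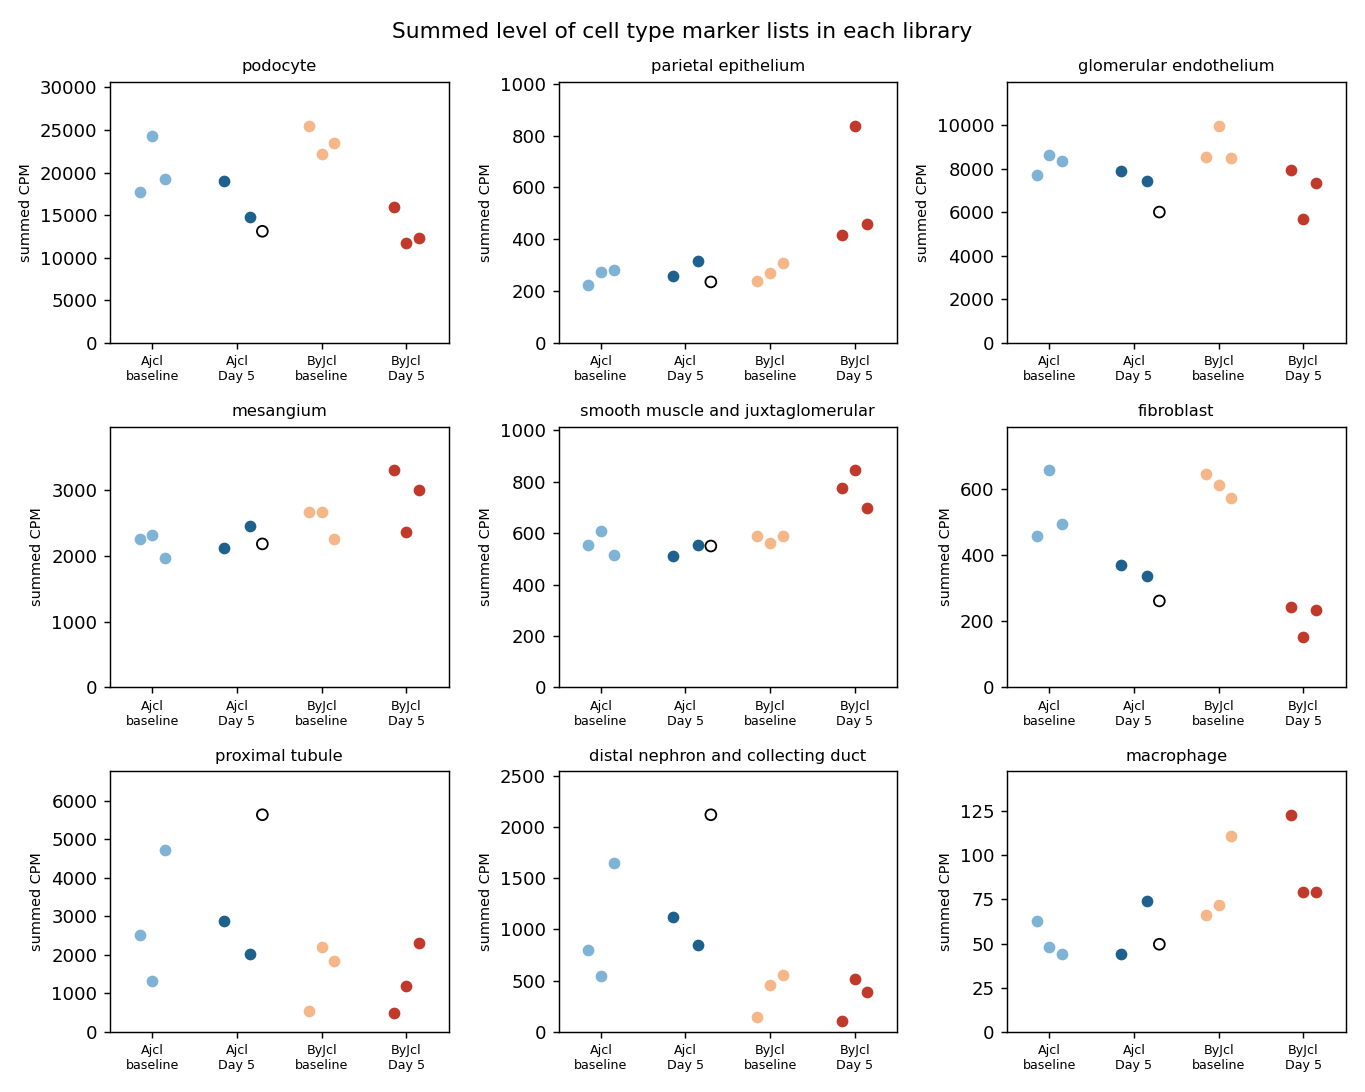
Summed CPM of 9 cell type marker lists (vertical axes, from 0) in each library of the 4 groups; the open circle is the Ajcl Day 5 library left out. The 3 ByJcl Day 5 libraries, 1 fitted Ajcl Day 5 library and the open circle had podocyte sums below every baseline library, parietal and smooth muscle sums were highest in the ByJcl Day 5 libraries, and the open circle had the highest tubular sums.

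The relatives of each gene were counted in the same fit, with the 6 genes left out. By edgeR no gene of any list was called in the difference of the responses. Since 0 of the 17002 genes tested were called there, this does not set the lists apart from the 6 genes. None was called in the averaged substrain difference either, beside 0.565% of all genes tested. Of 9 genes tested on the galectin list, 4 rose in the averaged ADR response and 0 fell. Lgals3, galectin-3, stood at 3.87 CPM in Ajcl and 3.58 in ByJcl at baseline and at 7.85 and 29.4 CPM at Day 5, and rose by 2.03 ± 0.33 (SE, log2; edgeR adjusted p = 0.0036). Lgals7 (1.26 ± 0.28, edgeR adjusted p = 0.0174), Lgals3bp, whose product binds galectins (0.74 ± 0.20, adjusted p = 0.0405), and Lgals9 (0.50 ± 0.10, adjusted p = 0.0122) rose too. The difference between the substrains' responses was 2.01 ± 0.66 for Lgals3 (edgeR adjusted p = 0.62) and was not called. The list's median averaged response was 0.21, beside -0.004 over all genes tested.

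Of the CAP superfamily 0 of 7 tested genes passed in the averaged response, the nearest being Crispld2 at 0.93 ± 0.27 (SE, log2; edgeR adjusted p = 0.0527), then Crispld1 (-0.43, adjusted p = 0.0555) and R3hdml (0.74, adjusted p = 0.135). Of the complex around Beclin 1 0 of 8 passed, with estimates of -0.18 for Nrbf2 (edgeR adjusted p = 0.316), 0.09 for Uvrag (0.402) and -0.11 for Atg14 (0.483). Of protein phosphatase 6 subunits 0 of 6 passed, with Ppp6r1 at -0.15 (edgeR adjusted p = 0.26), Ankrd28 at 0.15 (0.394) and Ppp6r2 at -0.10 (0.527). The medians of these lists were -0.059, -0.001 and -0.009 on the log2 scale.

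Among 15 GalNAc transferases tested, Galnt18 alone rose (0.34 ± 0.07, SE, log2; edgeR adjusted p = 0.00872). Galnt10 was at -0.33 (edgeR adjusted p = 0.0867), and Galntl6 had no counts at baseline and 0.203 and 0.193 CPM at Day 5 in Ajcl and ByJcl. Of 10 genes that extend mucin-type O-glycans, the sialyltransferase St6galnac3 fell by 0.89 on the log2 scale (edgeR adjusted p = 0.0226), and St3gal1 (-0.25, adjusted p = 0.189) and St3gal2 (-0.19, adjusted p = 0.226) did not pass. Of 25 dual specificity phosphatases, Dusp6 (0.61 ± 0.13, edgeR adjusted p = 0.012) and Dusp8 (0.57 ± 0.15, adjusted p = 0.0373), both of which dephosphorylate MAP kinases, rose, and Dusp13 was at 1.98 (adjusted p = 0.0694). The medians of these lists were 0.057, -0.071 and -0.027.

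Targets of p53 served as a list for the response that ADR is known for. Of 20 tested, 17 rose in the averaged response and 0 fell. Sesn1 (-0.05, edgeR adjusted p = 0.876), Plk2 (0.49, adjusted p = 0.0962) and Pmaip1 (0.71, adjusted p = 0.119) did not pass. Cdkn1a, the cell cycle inhibitor p21, stood at 27.1 and 22.0 CPM at baseline and at 415 and 725 CPM at Day 5 in Ajcl and ByJcl, a log2 rise of 4.49 ± 0.21 (edgeR adjusted p = 1.44e-06). Ccng1 (1.89) and Phlda3 (2.84) also rose, with edgeR adjusted p of 1.44e-06 and 7.3e-06. The list's median response was 1.15 in Ajcl and 1.65 in ByJcl. No member of it was called in the difference of the responses, where edgeR called 0 of the 17002 genes tested.

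**Figure D5:**
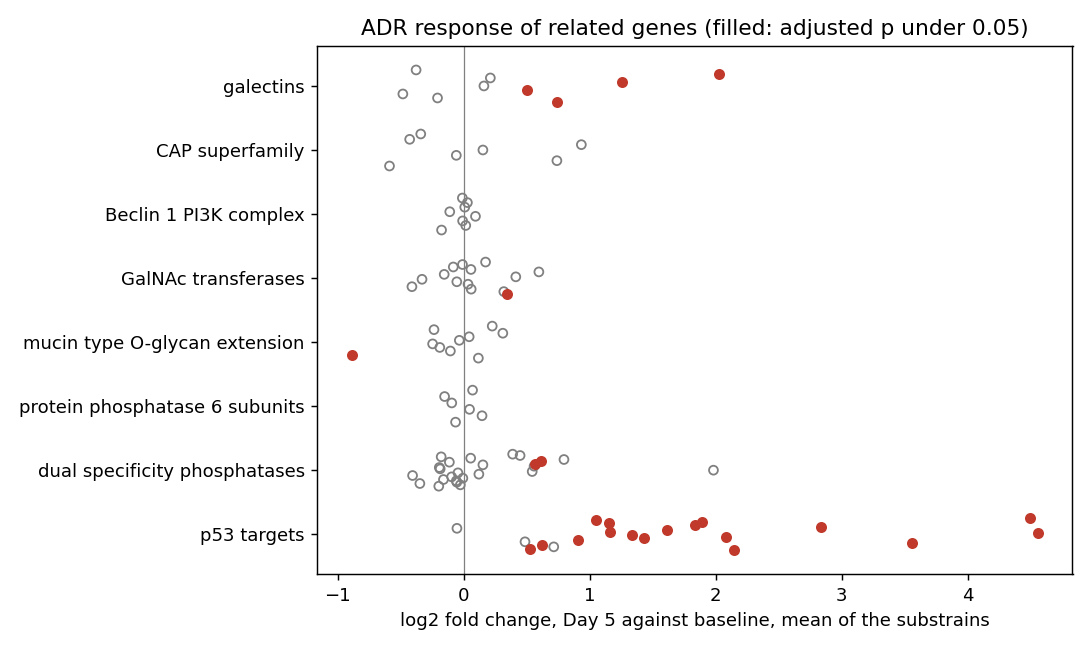
Averaged log2 fold change from baseline to Day 5 (horizontal) of each tested relative of the 6 genes and of p53 targets, by list, without Galntl6, which had no baseline counts; filled points had an edgeR adjusted p under 0.05. Of the p53 targets 17 of 20 were filled and all of those lay to the right of 0, against 4 of 9 genes of the galectin list.

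The nearest tested gene on each side of the 6 genes was taken from the annotation, 12 neighbours at 4450 to 402404 bases. None was called in the difference of the responses by edgeR, as was true of all 17002 genes tested. The estimates ran from -2.06 (Ttll9) to 1.24 (Foxs1) on the log2 scale. Both of these flank Dusp15, and each rose in the averaged response, Foxs1 by 1.80 (edgeR adjusted p = 0.0181) and Ttll9 by 1.93 (adjusted p = 0.00194). Magi1, which follows 9530026P05Rik, rose by 0.60 (edgeR adjusted p = 0.00588). The other 9 neighbours, among them Reck and Clta beside Glipr2, Pdxp and Nol12 beside Lgals1, Ankrd28 and Dph3 beside Galnt15 and Pgap1 and Sf3b1 beside Ankrd44, did not pass in the averaged response. The upstream neighbour of 9530026P05Rik, Gm15737, was below 1 CPM in all groups.

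For each gene the 2 tested genes with the most similar log2 CPM over the 11 libraries were listed by Pearson's r, which is a description, since these libraries share the 4 groups. For Glipr2 they were Actb (r = 0.93), beta-actin, and Wdr1 (0.93), an actin-disassembly cofactor. Actb stood at 1930, 1700, 1920 and 2720 CPM at Ajcl baseline, Ajcl Day 5, ByJcl baseline and ByJcl Day 5. For Lgals1 they were Abcb5 (0.99), which had no counts at baseline and stayed under 1 CPM, and Clic1 (0.98), at 181, 201, 195 and 349 CPM in the same order. For Galnt15 they were Prox2 (0.97) and Mlxip (0.91). Mlxip, a glucose-sensing transcription factor, stood at 105, 152, 138 and 143 CPM, and at 66.0 CPM in the Ajcl Day 5 library left out. For Ankrd44 they were Pnmal2 and Foxo4 (0.98 each), for Dusp15 Rif1 and Trp53bp2 (0.95 each) and for 9530026P05Rik Lrrc45 (0.98) and A330040F15Rik (0.97). Pnmal2 stood at 56.6, 41.3, 67.6 and 26.1 CPM, the order of groups seen in Ankrd44.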

How the data were processed

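Glomerular RNA of 12 libraries was analysed. Per the labels and the study's methods the authors used Trimmomatic for trimming, STAR for alignment to GRCm39 and featureCounts for counting, and the deposited values are whole-number counts per gene symbol, not normalized or pooled, in separate tables for baseline and Day 5. The strand setting and whether the mates of a read pair were counted singly are not given in the sources used here. Between 77.1% and 82.9% of counts from 1 to 49 in a library were even numbers, so a printed count may stand for fewer independent fragments than its size. Totals ran from 42198416 to 54687045, and all columns were used. Replicate libraries differed by chi-square values of 44.6 to 271 per degree of freedom, so none was a copy.

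Counts were fitted in R 4.3.3 with edgeR 4.0.16 (filterByExpr, TMM, quasi-likelihood, 1 coefficient for each of 4 groups, 11 libraries, 7 residual degrees of freedom). Benjamini-Hochberg adjustment ran over 17002 genes, and an adjusted p under 0.05 is a call. Log2 CPM used a prior count of 2. DESeq2 1.42.0 was an alternative, beside other scalings, filters, libraries and a replicate block. Python 3.11.15 was used for annotation and plots. GENCODE vM39 matched 23897 symbols. The script was tested on simulated data. The 6 genes, the gene and marker lists and the tests were chosen with earlier results of these data known. Genes named are the 6, up to 3 relatives per list by the averaged ADR response, the 2 most similar profiles, the flanking genes and the next in rank, and any other name was chosen after its values were seen.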

Additional observations from a re-analysis of the deposited data

Results flagged for a closer look

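For Glipr2, Galnt15 and Dusp15 each fitted Day 5 library lay on one side of its own baseline mean in Ajcl and on the other side in ByJcl. The difference of the responses was 1.49 (log2) for Glipr2, -2.38 for Galnt15 and -1.41 for Dusp15, and since it chose these genes it was not tested. For Dusp15 the lower Ajcl Day 5 library, at 23.3 CPM, was only just above the Ajcl baseline mean on the log2 scale.

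In the Ajcl Day 5 library left out of the fit, Lgals1 stood at 57.2 CPM, above the 3 Ajcl baseline libraries (26.9 to 34.7 CPM). The other 5 genes were not above their Ajcl baseline range there.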

How the results depend on the processing

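Over 19 alternatives the difference of the responses had the same sign for all 6 genes (114 of 114 values), which the choice of the genes on this contrast and the shared libraries largely fix. With all 12 libraries it was -1.92 for Galnt15, -0.58 for Ankrd44 and -0.855 for 9530026P05Rik. With the library left out as the only Ajcl Day 5 library, an alternative chosen after seeing the data, it was 0.87 for Lgals1, -0.24 for Galnt15, -0.23 for Ankrd44, -0.69 for Dusp15 and -0.26 for 9530026P05Rik. In that fit Galnt15's averaged ADR response turned to -0.21, the averaged substrain difference turned to 0.12 for Ankrd44 and 0.086 for 9530026P05Rik, and the genes called were 1 for the difference of the responses (Col5a3), 3162 for the averaged ADR response and 3289 for the averaged substrain difference. The averaged substrain difference of Galnt15 (1.33) and the averaged ADR response of Dusp15 (-0.60) passed there, but the group is 1 library of reduced purity, which is assumed to vary like the other groups. DESeq2 called 23 genes in the difference of the responses and 696 in the averaged substrain difference. Leaving out 1 library at a time, with the same assumption where it left 1 Ajcl Day 5 library, gave 1.32 to 1.74 for Glipr2, 1.18 to 1.91 for Lgals1, -2.75 to -1.92 for Galnt15, -0.88 to -0.57 for Ankrd44, -1.74 to -0.94 for Dusp15 and -1.18 to -0.98 for 9530026P05Rik. It gave 0 to 5 calls for the difference of the responses, the 5 (Aifm3, Col5a3, Creg2, Lypd1 and Trabd2b) without Ajcl Day 5 replicate 3. The averaged ADR response had 531 to 1816 calls, 531 without Ajcl Day 5 replicate 3 and 1141 without ByJcl Day 5 replicate 2. The averaged substrain difference had 34 to 280 calls, 34 without Ajcl Day 5 replicate 2, 280 without replicate 3, 63 without Ajcl baseline replicate 1, 55 without ByJcl baseline replicate 2 and 54 without replicate 3. The causes were not tested. Same-numbered libraries deviated together in 6 of 18 pairs (correlation over 0.1, range -0.287 to 0.374). Differently numbered pairs were not set beside these, so the values cannot tell whether the numbers pair the libraries. The main fit used no pairing. With a replicate block Galnt15's averaged ADR response was 0.77 (edgeR adjusted p = 0.06).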
